A study of Homo sapiens with 2 samples.

Results

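Ribosomal protein genes encode the proteins of the cytosolic ribosome, and 8 of them, named in tables derived from RNA bound by ALKBH5, a demethylase that erases N6-methyladenosine (m6A), the commonest internal mark of mRNA, are described here. The members are symbols made of RPL or RPS plus digits, kinases of ribosomal protein S6 left out, that stand as entries in the authors' tables of Gene Ontology (GO) terms or KEGG pathways. They are RPL3, RPL6, RPL7A and RPL14 of the large (60S) subunit, the paralog RPL7L1, and RPS3, RPS20 and RPS25 of the small (40S) subunit. The GO and KEGG tables name 5614 symbols in all, and 5851 together with a further table of RNA-binding protein families. The members were thus chosen by their listing in the GO and KEGG tables. Their absence from the family table was named beforehand as a point to describe, so both are descriptions and not tests.

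The cells were of the human leukaemia line HL-60, established from promyelocytic blasts, with no treatment named in the labels. Per the labels' protocols and the design text, 10% of the lysate served as input and 80% was precipitated (IP) with an antibody to ALKBH5. The remaining 10% met rabbit IgG and was not analysed here. There was 1 input library and 1 IP library, both tagged with the genotype ALKBH5. Titles and library names disagree on which library is which, and the library names were followed. The tables hold genes annotated to peaks, with no level per gene or per library, so a gene is only listed or not listed, its depth is unknown, and IP cannot be set against input. No replicate stands behind any listing.

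A ribosome is built from 2 subunits, each a scaffold of ribosomal RNA covered by proteins. The small subunit reads the mRNA and the large subunit joins the amino acids. The messenger RNAs of ribosomal proteins are among the most abundant of a growing cell, and most begin at a cytosine followed by a run of pyrimidines, the 5′ terminal oligopyrimidine (TOP) tract, through which mTOR signalling sets their translation. Ribosomal protein genes are short, several of them carry small nucleolar RNAs (snoRNAs) in their introns, and the genome holds many processed pseudogene copies of them.

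The start of the transcript is shown because the pyrimidine tract is the best known sequence feature that these mRNAs share, and because the listing did not use it. The windows run from 12 bases before to 18 bases from the annotated start onward, read 5′ to 3′ on the transcribed strand from the RefSeq promoter table of GRCh38.p14. Capitals mark an uninterrupted run of C and T of at least 6 bases that overlaps the 5 bases on either side of the start.
RPL7A, chr9:133348206-133348235, plus strand: caaTTCCCTTTCCTTTCTCTCTCCTCCCgc
RPL14, chr3:40457327-40457356, plus strand: cgggTCTTCTTCCTTCTCgcctaacgccgc
RPS3, chr11:75399506-75399535, plus strand: cgcgagccaCTTCCTTTCCTTTCagcggag
RPS25, chr11:119018326-119018355, minus strand: gagcagcgCTTCCTTTTTgtccgacatctt
RPL3, chr22:39319606-39319635, minus strand: aggccgaccggcctctaccggcgggatttg
RPL6, chr12:112409268-112409297, minus strand: gagacggcgcgtgcactgtgttcctggtcc
RPL6, chr12:112411425-112411454, minus strand: ttgtatcctcagtgaatcagaaccagaaaa
RPL7L1, chr6:42879604-42879633, plus strand: aagtgcggcgccgtagctaggagcggacgc

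RPL7A had the longest pyrimidine run, 25 bases, and RPL14 and RPS3 had 14 each. The run of RPS25 was 10 bases long. RPL3 reached 5 bases, just under the minimum, and RPL6 reached 5 at one of the 2 starts that have a window and 2 at the other. Both starts lie inside the gene, and the outermost RefSeq start of RPL6 was not examined. RPL7L1 reached 2. RPS20 had no window to show. By this rule 4 of 7 listed members with a window carried a tract (57.1%), against 52 of 62 unlisted ribosomal protein genes with one (83.9%) and 27.7% of 15843 protein-coding genes. The median longest run was 10 bases in the listed members, 11 in the unlisted genes and 4 in protein-coding genes. The plot of pyrimidine runs shows the listed members spread across nearly the whole range of the unlisted genes, with RPL7A above it. With the outermost start of each gene alone, which leaves out RPL6 and 2 unlisted genes, 4 of 6 listed members (66.7%) and 47 of 60 unlisted genes (78.3%) carried a tract. Genes with several annotated starts were otherwise given their longest run, and a run is a description of the letters, not evidence that a tract is used.

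**Figure D1:**
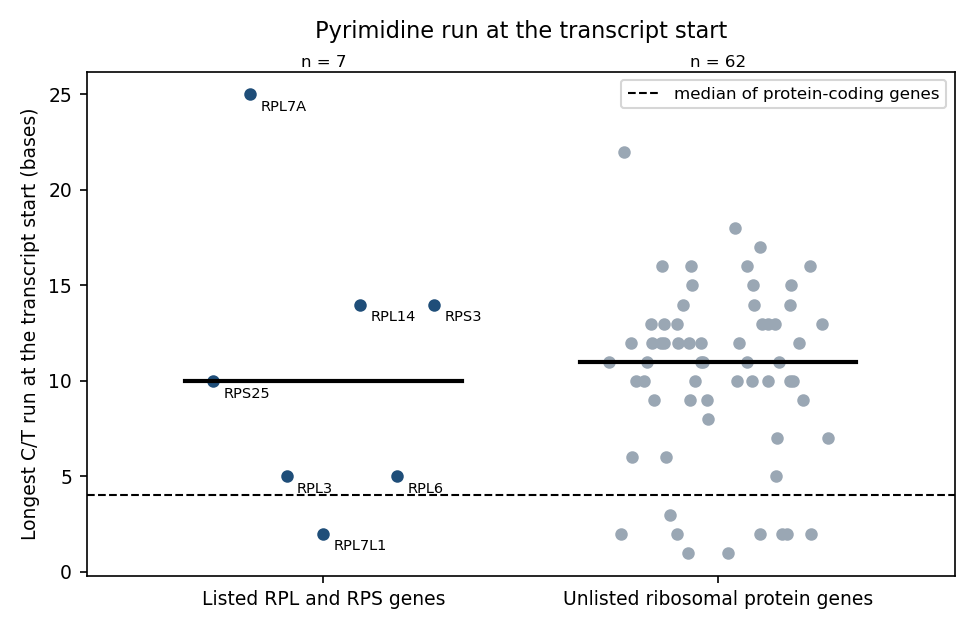
Longest run of C and T at the annotated transcript start (bases, vertical axis) for the 7 listed RPL and RPS genes with a RefSeq window and 62 unlisted ribosomal protein genes; each point is a gene, solid bars are medians and the dashed line is the median of protein-coding genes (4 bases). RPL7A stands highest at 25 bases and RPL7L1 lowest of the listed genes at 2, and the groups overlap.

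Of the 85 cytosolic ribosomal protein genes and paralogs considered, the 8 members were listed (9.41%). Among all 20056 protein-coding genes of RefSeq, 26.9% were listed. That share was 25.9% for the GO or KEGG tables and 25.7% for the GO table alone, which held all 8. The listed share was 8.7% of the 46 large subunit genes (4), 9.68% of the 31 small subunit genes (3) and 12.5% of the 8 paralogs (1). The shares of both subunits lay under that of all protein-coding genes, and the difference between subunits was not tested. Among the 59778 genes of any biotype 9.16% were listed, but most genes of that set do not encode a protein. It is thus not a like set for the ribosomal protein genes.

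The 77 unlisted genes include proteins with well known roles. RPS6, a substrate of S6 kinases, was not listed, nor were RPL5 and RPL11, which bind MDM2 when ribosome assembly is disturbed. RPS19, the gene most often mutated in Diamond-Blackfan anaemia, was not listed either. The stalk proteins RPLP0, RPLP1 and RPLP2, which recruit the elongation factors, were all unlisted, as were RPSA, FAU and RPS27A. RPL7 was not listed although its paralog RPL7L1 was, and RPL3 was listed without its muscle paralog RPL3L. A symbol reached the GO and KEGG tables only through a term that the authors listed, so a peak on an unlisted gene is possible.

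The members held 63 entries on 28 GO terms and none in the 38 listed KEGG pathways. KEGG listed 5.69% of protein-coding genes, and 22.0% of those in the GO or KEGG table. RNA binding was the only term that held all 8 members. They made up 0.974% of its 821 entries, or 1.02% of its 782 distinct gene identifiers, in the authors' deposited table (corrected p 5.33e-16 for the term). All 8 members were thus entries of RNA binding, against 15.0% of the protein-coding genes of the GO or KEGG table. A gene had to stand in some listed term to be a member, so this contrast is a description and not a test. Cytosol held 7 members, all but RPL7L1, and membrane held 5. Nucleolus, where ribosomal subunits are assembled, held RPL3, RPL7A, RPL7L1, RPS3 and RPS25. The corrected p of these terms in the authors' deposited table was 5.90e-11 for cytosol, 6.31e-10 for membrane and 1.15e-07 for nucleolus. Of the protein-coding genes of the GO or KEGG table, 43.3% were in cytosol, 19.3% in membrane and 8.81% in nucleolus. A term records what is known of the encoded protein, and says nothing of where the RNA was bound.

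**Figure D2:**
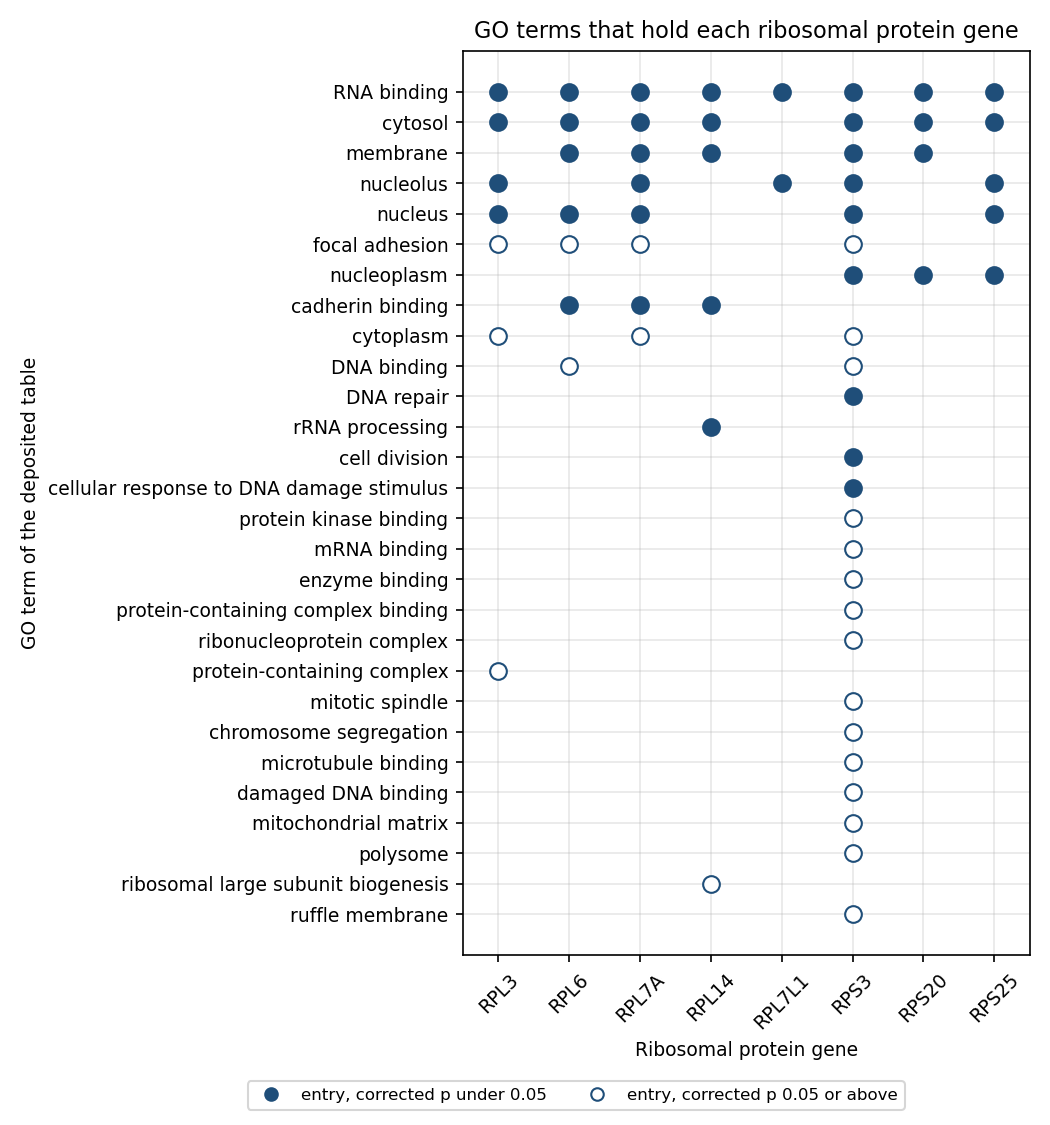
Entries of the 8 listed RPL and RPS genes (horizontal axis) in the 28 GO terms of the deposited table that hold any of them (vertical axis); filled circles are terms with a deposited corrected p under 0.05 and open circles are the others. RNA binding is the only row filled for all 8 genes, and RPS3 has 24 entries where the other genes have 2 to 8.

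The members of the small subunit shared a term that those of the large subunit lacked. RPS3, RPS20 and RPS25 were all entries of nucleoplasm (corrected p 3.05e-20 in the authors' deposited table), and none of RPL3, RPL6, RPL7A, RPL14 or RPL7L1 was. Of the protein-coding genes listed in RNA binding, 56.0% were also entries of nucleoplasm, and of all those in the GO or KEGG table, 35.1% were. In the other direction cadherin binding held RPL6, RPL7A and RPL14 and no small subunit member (corrected p 0.00398 in the authors' deposited table). Focal adhesion held 4 members from both subunits, RPL3, RPL6, RPL7A and RPS3, with a corrected p in the authors' deposited table of 0.864. Of the protein-coding genes of the GO or KEGG table, 3.23% were in cadherin binding and 3.63% in focal adhesion. Whether these splits differ from those of other genes was not tested.

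Every member stood in at least 1 term with a corrected p under 0.05, as did 88.1% of the protein-coding genes of the GO or KEGG table (22.9% of all protein-coding genes), so this is near the share of listed genes in general. RPL3, which lies close to the peptidyl transferase centre, had 7 terms, 4 of them under that limit. RPL6, another protein of the large subunit, also had 7 terms, 5 of them under the limit, with DNA binding among the others (corrected p 0.182 in the authors' deposited table). RPL7A had 8 terms, 6 of them under the limit, the most of the large subunit members. RPL14 had 6, and was the only member in rRNA processing (corrected p 0.00437) and in ribosomal large subunit biogenesis (corrected p 0.886), both from the authors' deposited table. RPL7L1, a relative of RPL7 found in assembling large subunits, had the fewest, RNA binding and nucleolus. Both were under the limit.

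RPS3 stood apart among the members with 24 terms, 9 of them under the limit. It lines the mRNA entry channel of the small subunit and is also known for roles outside the ribosome, in the repair of damaged DNA and as a partner of NF-kappaB. DNA repair (corrected p 1.25e-04), cellular response to DNA damage stimulus (0.0392) and cell division (0.0172) held RPS3 and no other of these members, all in the authors' deposited table. So did damaged DNA binding, mitotic spindle, chromosome segregation, microtubule binding and polysome, each with a corrected p of 0.558 or above there. In all, 15 of the 28 terms held RPS3 and no other of the 8 members, and 13 terms were left without it. Among the 5614 symbols, 98.9% had fewer terms than RPS3, and the median symbol had 4.

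RPS25, a small subunit protein needed for translation from certain internal ribosome entry sites, had 5 terms, all of them under the limit. RPS20, a protein of the small subunit head and a target of the ubiquitin ligase ZNF598 on stalled ribosomes, had 4, also all under the limit. The median member had 6.5 terms. Of the 28 pairs of members, RPL3 with RPL7A and RPL6 with RPL7A were the most alike, each sharing 6 of 9 terms held by either. RPS20 and RPS25 shared 3 of 6. RPS3 and RPL7L1 were least alike, with 2 of 24 shared. One other symbol, PRRC2A, had exactly the terms of RPS20, and AC002550.5, KNOP1, KRI1 and NOM1 had those of RPL7L1; these 5 were looked up after the data were seen.

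Apart from RNA binding, mRNA binding (through RPS3), rRNA processing and ribosomal large subunit biogenesis, no listed term with ribosome, rRNA, translation or RNA binding in its name held one. The KEGG pathway Ribosome biogenesis in eukaryotes had, in the authors' deposited table, 57 entries on 105 background genes (corrected p 0.268), and none of its entries was a member. Preribosome, large subunit precursor, had 23 entries on 21 identifiers (corrected p 0.202) and positive regulation of translation had 44 (0.797), both without a member, in the authors' deposited table. Neither a KEGG pathway Ribosome nor a GO term for a cytosolic ribosomal subunit was among the listed terms. The members were thus listed mainly through broader terms, though RPL14 stood in rRNA processing and ribosomal large subunit biogenesis and RPS3 in polysome. The named terms are small: of the protein-coding genes of the GO or KEGG table, 1.81% were in rRNA processing, 1.02% in Ribosome biogenesis in eukaryotes, 0.711% in positive regulation of translation and 0.404% in the preribosome term. With 8 members, a count of 0 or 1 in such a term is near that background. Whether each of the 8 members could enter these terms by its annotation was not examined.

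Each member carried its own gene identifier, the same as that of RefSeq. This matters because 668 of the 5614 symbols (11.9%) shared an identifier with another symbol. None of the 8 members did. The entries of ribosomal protein genes therefore stand on the symbols as written, and no identifier of an unlisted ribosomal protein gene was found under another symbol.

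The family table, which pairs symbols with families of RNA-binding proteins such as RRM, held 0 of the 8 members. Of the protein-coding genes of the GO or KEGG table, 20.1% were also in it, and of those listed in RNA binding 15.1% were. The integrin gene ITGAM was in it and HNRNPA1, an entry of RNA binding, was not. Absence from it is thus not read here as a statement of protein class. Over all protein-coding genes the share was 6.14%. Of the 85 cytosolic ribosomal protein genes and paralogs considered, 0 were in it. The absence of the members from this table did not select them, but it was named beforehand as a point to describe and was not tested.

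Position and structure of the genes were taken from RefSeq (GRCh38.p14), with genomic lengths that include introns. RPS25 was the shortest member, 2.63 kb on chromosome 11 from 119015717 to 119018343. RPL7A spans 3.21 kb on chromosome 9 (133348218 to 133351426) and RPL3 6.74 kb on chromosome 22 (39312882 to 39319623). These were followed by RPS20 with 7.25 kb on chromosome 8 (56067254 to 56074506). The longer members were RPL7L1 with 10.3 kb on chromosome 6 (42879616 to 42889900), RPL14 with 11.2 kb on chromosome 3 (40457339 to 40468587) and RPL6 with 13.7 kb on chromosome 12 (112405181 to 112418835). RPS3 was the longest, 22.8 kb on chromosome 11 (75399518 to 75422302). The members are thus spread over 7 chromosomes, and only RPS3 and RPS25 share one.

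The listed members tended to be longer than the unlisted ribosomal protein genes, with wide overlap. Their median was 8.77 kb, against 4.80 kb (range 0.772 to 27.7 kb) for the 77 unlisted genes, and 6 of 8 members exceeded that median. Among all protein-coding genes the listed ones had a median of 35.4 kb and those not listed 20.1 kb. Ribosomal protein genes as a whole had a median of 5.015 kb, against 24.1 kb for protein-coding genes. The median length was thus higher in the listed genes both within the ribosomal protein genes and among all protein-coding genes. Whether length has any part in the low listed share was not tested.

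**Figure D3:**
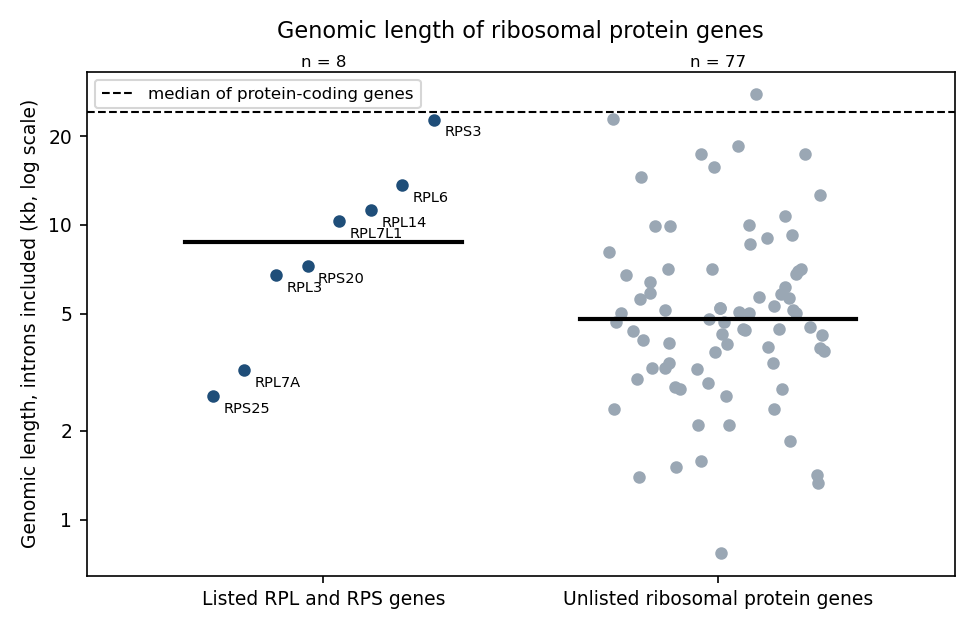
Genomic length with introns (kb, log axis) of the 8 listed RPL and RPS genes and the 77 unlisted ribosomal protein genes; each point is a gene, solid bars are medians (8.77 and 4.80 kb) and the dashed line is the median of protein-coding genes (24.1 kb). Of the 8 listed genes, 6 lie above the median of the unlisted ones, and both groups overlap.

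Small nucleolar RNAs lay within 4 of the 8 members. RPL3 holds 4, among them SNORD43, and RPL7A also holds 4, SNORD24 and the SNORD36 copies. RPS3 holds SNORD15A and SNORD15B, and RPS20 holds SNORD54. Among the unlisted genes 25 of 77 were hosts (32.5%). The files do not tell which part of a gene carried a peak, so the mature mRNA, an intron and a snoRNA within it cannot be told apart.

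Pseudogenes named after a gene in RefSeq were counted as possible copies among which reads could be split. They were counted by name, and their likeness in sequence was not measured. RPL14 had 6 such pseudogenes and RPS3 7, while RPL6 had 32, RPS20 35 and RPL7A 80. The median was 17.5 in the members and 15 in the unlisted genes, where the range ran from 0 to 137. Listed and unlisted genes overlapped over the whole range of the members. The sources used here do not give how reads that align to several places were treated, and listing of these genes is uncertain to that extent. Of the other genes in RefSeq, CENATAC overlaps RPS25 and was itself not listed; no other member was overlapped by a gene other than a snoRNA or microRNA.

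Other gene lists of the translation apparatus had listed shares of 24.7% to 91.7%, against 9.41% for the ribosomal protein genes. These lists were chosen with earlier results of these data known, so the contrast is a description. Of 36 ribosome assembly factors 33 were listed (91.7%), with BOP1, BYSL, DDX21, DKC1, FBL and GNL2 first in alphabetical order. FBL is the RNA methyltransferase that works with box C/D snoRNAs, and DKC1 the pseudouridine synthase that works with the box H/ACA class. Of 46 translation factors 28 were listed (60.9%), among them the elongation factors EEF1D and EEF2 and EIF2B1, EIF2B3, EIF2B4 and EIF2B5 of the nucleotide exchange factor of eIF2. In ribosome quality control, which clears stalled ribosomes, 12 of 17 genes were listed (70.6%), with ANKZF1, ASCC2, ASCC3, GCN1, GIGYF2 and HBS1L. ZNF598, named here after its listing was seen, was among the 12.

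The S6 kinases, which the symbol rule leaves out, were listed in 6 of 10 cases. They were RPS6KA1, RPS6KA2, RPS6KA4, RPS6KA5, RPS6KB2 and RPS6KL1. The kinases RPS6KA3, RPS6KA6, RPS6KB1 and RPS6KC1 were not, nor was RPS6. Of 6 chaperones of ribosomal proteins 3 were listed, AAMP, GRWD1 and HEATR3; GRWD1 is the chaperone of the RPL3 protein. Of 16 other mRNAs with a known TOP tract 7 were listed (43.8%), among them EEF1D, EEF2, EIF3F, EIF4B, HNRNPA1 and NPM1, while EEF1A1, PABPC1, RACK1 and TPT1 were not. Mitochondrial ribosomal proteins, encoded in the nucleus for the ribosome of the mitochondrion, were listed in 19 of 77 cases (24.7%), close to the share of all protein-coding genes. MRPL2, MRPL27, MRPL28, MRPL35, MRPL38 and MRPL39 were among them.

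Counted only through the term RNA binding, which 3.88% of protein-coding genes entered, the larger lists stood in the same order. The share was 9.41% for the 85 cytosolic ribosomal protein genes and paralogs (8), 37.0% for translation factors (17) and 75.0% for assembly factors (27), with 10 of the 77 mitochondrial ribosomal proteins. On this count the ribosomal protein genes lay above the share of all protein-coding genes, most of which do not encode RNA-binding proteins. The term itself held 782 distinct identifiers on 1366 background genes, a far larger share than the 9.41% of the ribosomal protein genes. How many of the 85 genes are among those background genes was not examined. Terms such as rRNA processing were themselves listed and hold 19 assembly factors, so these lists did not have the same ways of being listed. The differences between lists were not tested.

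**Figure D4:**
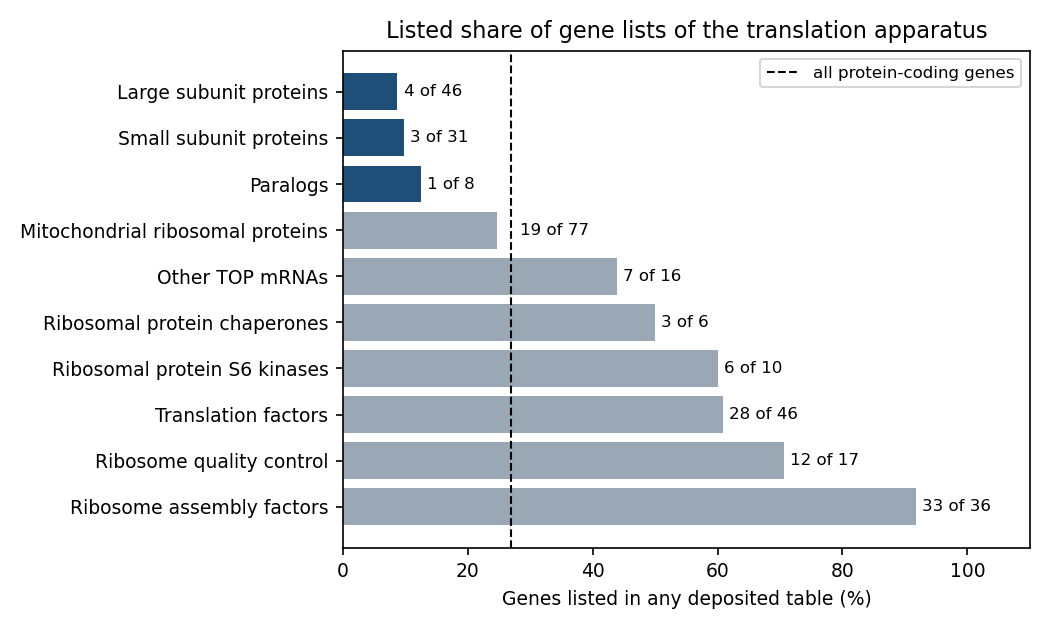
Share of each gene list named in any deposited table (%, horizontal axis, from 0), with the count of genes beside each bar; dark bars are cytosolic ribosomal protein genes and paralogs, light bars other lists of the translation apparatus, and the dashed line is the share of all protein-coding genes (26.9%). The 3 dark bars lie between 8.7% and 12.5%, left of the line, and all light bars but that of mitochondrial ribosomal proteins (24.7%) lie right of it. The lists were chosen with earlier results of these data known.

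For the cell type, 6 of 12 myeloid and HL-60 marker genes were listed (CD33, CEBPA, ITGAM, MPO, MYC and PRTN3), and ELANE, AZU1 and CTSG were not. Of 14 genes taken as markers of other cell types 6 were listed: the keratins KRT8, KRT18 and KRT19, EPCAM, PECAM1 and CD4, the last 2 of which myeloid cells can also express. Both counts stand beside the 26.9% of all protein-coding genes that were listed. With no level per gene, neither count shows how much of such RNA was present, and their part in the listing of ribosomal protein genes was not tested.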

How the data were processed

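RNA immunoprecipitation with an ALKBH5 antibody was sequenced in HL-60 cells beside its input, with stranded libraries read in pairs, per the labels' protocols. The submitters' processing notes name hg38 as the build. Aligner, peak caller and enrichment tool are not given in the sources used here. Per the file headers, the authors deposited for each GO term and KEGG pathway the numbers of input entries and background genes, a rich factor (a ratio), a p-value and a corrected p-value. Their family table holds symbols and families without numbers. Corrected p-values are the authors', and no enrichment test was added.

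Symbols were matched to RefSeq (GRCh38.p14) by symbol and then by older symbols with Python 3.11.15 and pandas 2.3.3; 373 of 5851 had no match. The genes and lists were chosen with earlier results of these data known. A few ribosomal protein genes, listed ones among them, are not reported here and are left out of every count of members and of ribosomal protein genes, so those listed shares understate the full ones. Listed genes matching the symbol rule were otherwise all named, with all their terms; of other lists, the first 6 listed genes in alphabetical order. The pyrimidine, snoRNA, pseudogene and shared-term descriptions were chosen after seeing the data. Alternatives changed the tables, terms, symbols, identifiers, genes and background counted.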

Additional observations from a re-analysis of the deposited data

How the results depend on the processing

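The 8 listed ribosomal protein genes stayed 8 in the GO table alone, with only terms of a corrected p under 0.05, by current symbol alone and with only symbols that have an identifier of their own. They became 7 without paralogs, 0 in the KEGG table alone and 0 in the family table alone. With the outermost start alone, added after seeing the data, the share with a pyrimidine tract went from 57.1% to 66.7% in the members and from 83.9% to 78.3% in the unlisted genes. The share of protein-coding genes listed, 26.9%, was 25.7% in the GO table alone, 5.69% in the KEGG table alone and 9.16% among genes of any biotype. The 28 terms that hold the members were also 28 with each identifier counted once and 13 without RPS3, a count added after seeing the data. Fewer tables or genes counted is how these settings are built. Every member has a current symbol and shares no identifier, so the settings on symbols and identifiers could not change the 8 or the 28. No paired analysis was possible because each group has 1 library and the tables hold no value per library. No read depth is known for any listed gene, and a gene that is not listed cannot be called unbound.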
